A study of Mus musculus with 8 samples.

Results

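The 9 genes described here carry the adrenergic and muscarinic signals of the heart: the adrenergic receptor genes *Adrb1*, *Adra1a* and *Adra1b*, the muscarinic receptor gene *Chrm2*, the receptor kinase gene *Adrbk1*, the adenylyl cyclase genes *Adcy5* and *Adcy6*, and the G protein α subunit genes *Gnas* and *Gnai2*. They were chosen by name, with earlier results of these data known. They are 9 of the 26590 gene symbols in the deposited table and had 32 of its 51414 transcript rows. Each gene is described first by its most abundant row, that with the highest average of the genotype means, and then by its other rows. RNA sequencing compared hearts of 4 Dio3+/+ and 4 Dio3-/- male fetuses of the strain C57BL/6J, each RNA sample from a single animal. Dio3 encodes the type 3 deiodinase, the enzyme that clears thyroid hormone, and Dio3-/- fetuses carry the inactive gene in every tissue, so the heart and the rest of the fetus lack the enzyme together. The sample titles give the age E13.5 (days of embryonic life) for all 8 hearts, and the age field gives E18.5 for Dio3-/- hearts 3 and 4, while the Methods name an age slightly later than the titles. The table used here holds only the authors' mean of each genotype and the coefficient of variation (CV, the SD divided by the mean), so these 2 hearts could not be left out and no value of a single heart can be shown.

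Noradrenaline and adrenaline raise heart rate and contraction mainly through the β1 receptor, which activates the stimulatory G protein, whose α subunit *Gnas* encodes. That subunit turns on adenylyl cyclase, of which types 5 and 6 predominate in cardiomyocytes, and the cyclic AMP formed activates protein kinase A. Acetylcholine from the vagus acts on the M2 receptor, which works through inhibitory G proteins such as that of *Gnai2* to lower cyclic AMP and open a potassium channel. The α1 receptors signal instead through phospholipase C, and *Adrbk1* (also known as *Grk2*) encodes the kinase that phosphorylates active receptors and so dampens them. Thyroid hormone excess in adults is known for a fast heart that resembles one under adrenergic drive.

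Levels are given as the authors' genotype means, read as RPKM (read number corrected for the length of the transcript and the size of the library, the unit of the filter in the Methods, which the table itself does not name). Differences are log2 fold changes on the log2(RPKM + 0.5) scale, Dio3-/- minus Dio3+/+, called the log2 change, with limma's moderated test calculated from the means and CVs and Benjamini-Hochberg adjustment over the 32703 transcript rows whose mean exceeded 1 RPKM in either genotype. The pseudocount of 0.5 understates the change of low genes. By the highest row of each gene, 336 of the 14657 genes tested had an adjusted *P* value under 0.05, 280 higher and 56 lower in Dio3-/- hearts (over rows, 2.15%), and the median log2 change of all genes was 0.04. Centering on the median log2 ratio of all rows gave 129 higher and 51 lower. *Dio3* itself had a mean of 0.35 RPKM (CV 1.23) in Dio3+/+ and 0.13 RPKM (CV 0.76) in Dio3-/- hearts, too low to check the genotype labels. The cardiomyocyte markers fixed for the check of the tissue were all above 1 RPKM, with summed means of 8020 and 9606 RPKM. Of the 8, 3 rose in Dio3-/- hearts, and 4 were under 0.05 unadjusted. Over all genes tested, 19.7% were under 0.05 unadjusted in either direction, and 15.2% as higher in Dio3-/- hearts. All 8 erythroid markers in the table had lower means in Dio3-/- hearts, with sums of 97861 and 34003 RPKM and CVs up to 0.4 and 0.61. Of these, 1 passed the adjusted test by limma, and all 8 were under 0.05 unadjusted. All 8 liver markers had higher means, with sums of 22.9 and 122.6 RPKM and CVs up to 1.41 and 1.26, and none passed the adjusted test by limma, with all 8 under 0.05 unadjusted. Of the markers of other cells, 0 of 6 for smooth muscle and pericytes, 0 of 7 for endothelium and 0 of 7 for epicardium and fibroblasts passed by limma (1, 2 and 1 under 0.05 unadjusted), and 1 of 6 for macrophages and leukocytes did. That gene was *Lyz2*, with 13.34 and 18.82 RPKM, the only 1 of the 6 with a log2 change above 0.

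The promoters of the genes that rose, *Chrm2* and *Adrb1*, are shown because these are the receptors whose transcripts differed between genotypes. Each line holds the 250 bases before the RefSeq transcription start (GRCm38.p6, plus strand), with *Chrm2* at chr6:36387834-36388083 and *Adrb1* at chr19:56721867-56722116.
Chrm2: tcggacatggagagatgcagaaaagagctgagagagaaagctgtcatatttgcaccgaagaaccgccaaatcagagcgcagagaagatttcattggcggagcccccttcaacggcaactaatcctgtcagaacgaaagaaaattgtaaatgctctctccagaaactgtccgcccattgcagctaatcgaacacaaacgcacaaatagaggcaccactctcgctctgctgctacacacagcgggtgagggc
Adrb1: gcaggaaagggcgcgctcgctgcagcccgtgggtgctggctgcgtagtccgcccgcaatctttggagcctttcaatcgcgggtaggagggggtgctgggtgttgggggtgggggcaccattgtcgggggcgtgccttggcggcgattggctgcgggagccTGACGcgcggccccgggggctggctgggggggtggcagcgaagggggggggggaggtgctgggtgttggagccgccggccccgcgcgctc
Capitals mark the letters TGACG, a core motif of cyclic AMP response elements, found 1 time in the *Adrb1* promoter, 85 bases from the start, and not in that of *Chrm2*. Searched on both strands in the same way, TGACG or its reverse was present in 17.8% of the 32851 promoters of the RefSeq table, and AGGTCA, a core motif of thyroid hormone response elements, in 14.0%. As a description of these letters only, neither receptor promoter held AGGTCA or its reverse in this window. The promoters differed in base composition, with 50% G and C in *Chrm2* and 74% in *Adrb1*, against a median of 52.4%. Of the 9 genes, 5 had a promoter in that table, 9 promoters in all, and none of the 9 held AGGTCA. The reverse of TGACG was also present in *Gnas* promoters, 33 and 52 bases from the start in overlapping windows and 211 bases in another. Neither it nor TGACG was found in the promoters of *Adcy5* and *Adra1b*.

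In the fetal heart the signal transducers were far more abundant than the receptors. Ordered by their means in Dio3+/+ hearts, the genes ran from *Gnas* (939.94 RPKM) through *Gnai2* (146.24), *Adcy6* (37.73), *Adrbk1* (17.93), *Adcy5* (14.53), *Chrm2* (5.89), *Adrb1* (3.11) and *Adra1b* (2.31) to *Adra1a* (0.11). *Gnas* was above 99.7% of all gene symbols and *Adrb1* above 55.7%. The ranges of the mean ± SD overlapped between neighbors only for *Adrb1* and *Adra1b* in Dio3+/+ hearts and for *Adrbk1* and *Adcy5* in Dio3-/- hearts. The order of the 9 genes was the same in both genotypes.

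**Figure D1:**
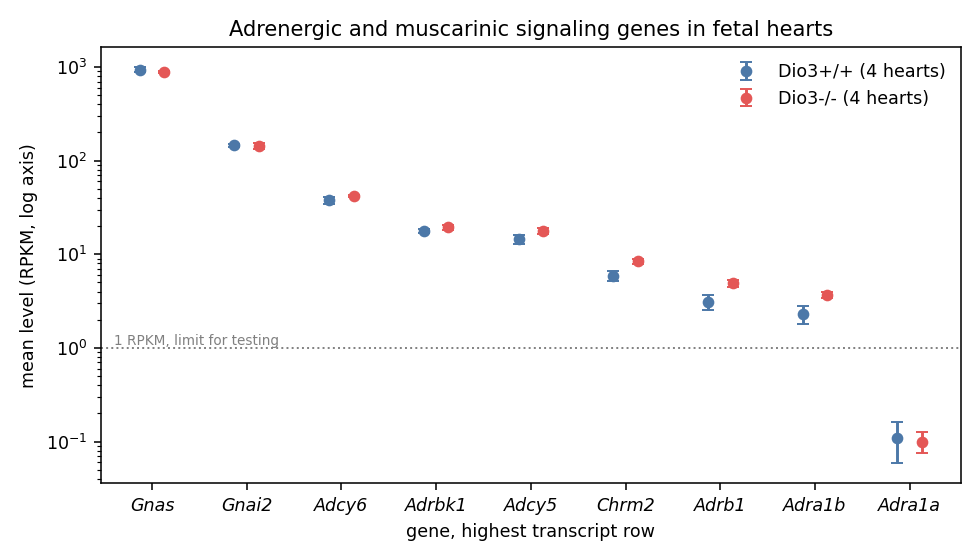
Mean level of each gene in RPKM on a log axis, by its highest transcript row, in Dio3+/+ (blue) and Dio3-/- hearts (red), with the SD over 4 hearts as error bars. *Gnas* (939.94 and 878.57 RPKM) and *Adra1a* (0.11 and 0.10 RPKM) are the extremes, and the SD ranges of the genotypes are apart for *Adcy5*, *Chrm2*, *Adrb1* and *Adra1b*.

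Among the receptors, *Adrb1* and *Chrm2* rose in Dio3-/- hearts, and no member fell. Of the 9 genes, 8 were tested and 2 passed an adjusted *P* value of 0.05 by limma, both higher, where 2.29% of all genes tested passed in either direction and 1.91% passed as higher. The genotypes' mean ± SD ranges did not overlap for 4 of the 8, namely *Adrb1*, *Chrm2*, *Adra1b* and *Adcy5*, all higher in Dio3-/- hearts, where 12.8% of all genes did so in that direction and 15.5% in either. The same 4 had an unadjusted *P* value under 0.05, as did 15.2% of all genes in that direction and 19.7% in either. The median log2 change of the 8 was 0.21, against 0.04 for all genes. Because the members were chosen with earlier results of these data known, these shares describe them and are not a test of the set. In whole hearts, more cells of a type and more RNA per cell cannot be told apart.

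**Figure D2:**
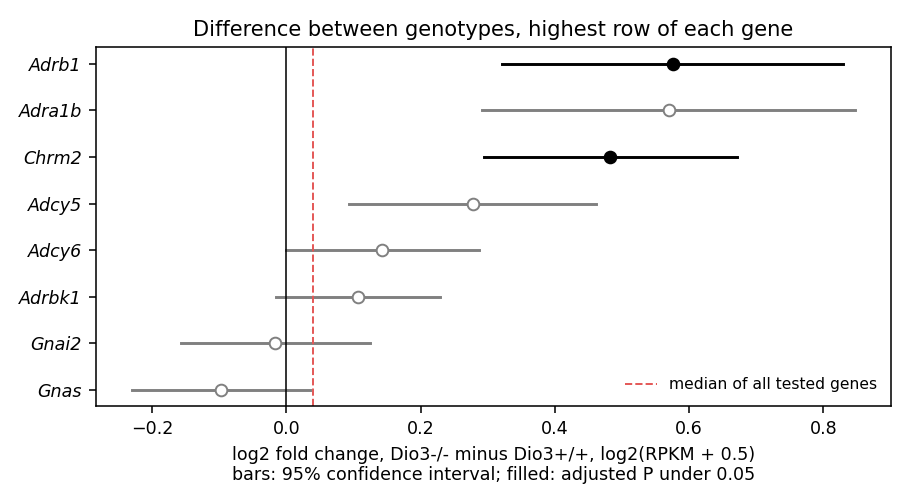
Log2 fold change of the 8 tested genes, Dio3-/- minus Dio3+/+, on the log2(RPKM + 0.5) scale, with 95% confidence intervals and filled points for an adjusted *P* value under 0.05. *Adrb1* (0.58) and *Chrm2* (0.48) are filled, *Adra1b* (0.57) is as far to the right but open, and the intervals of *Adcy6*, *Adrbk1*, *Gnai2* and *Gnas* include 0.

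*Adrb1*, which encodes the main β receptor of cardiomyocytes, had a mean of 3.11 RPKM (CV 0.18) in Dio3+/+ and 4.88 RPKM (CV 0.09) in Dio3-/- hearts, a level 1.57 times as high. The Dio3+/+ range of mean ± SD ended at 3.67 RPKM and the Dio3-/- range began at 4.44 RPKM. Its log2 change was 0.58 (standard error, SE, 0.11, 95% confidence interval 0.32 to 0.83, adjusted *P* = 0.038 by limma). *Adrb3*, which encodes the β3 receptor, was below 1 RPKM, with 0.47 and 0.44 RPKM. *Adrb1* has 1 transcript row, so no other row of the gene can be set beside it. The adjusted *P* value by limma became 0.071 without an expression filter and 0.060 with centering on the median log2 ratio, and 0.177 with Welch's test.

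*Chrm2*, which encodes the M2 receptor that slows the heart, had 5.89 RPKM (CV 0.12) in Dio3+/+ and 8.43 RPKM (CV 0.06) in Dio3-/- hearts, 1.43 times as high. Its log2 change was 0.48 (SE 0.08, 95% confidence interval 0.29 to 0.67, adjusted *P* = 0.023 by limma). The mean ± SD ranges were apart, ending at 6.60 RPKM in Dio3+/+ and beginning at 7.92 RPKM in Dio3-/- hearts. Its other row gave 5.85 RPKM (CV 0.12) and 8.14 RPKM (CV 0.08), with a log2 change of 0.44 (adjusted *P* = 0.040 by limma), and rows of a gene share reads and are not independent. With Welch's test, recalculated here from the means and rounded CVs and not the authors' own calculation, the adjusted *P* value of the first row was 0.155.

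Nearly all muscarinic receptor transcripts in these hearts were of *Chrm2*, which made up 86.4% of the summed means of the 5 muscarinic receptor genes in Dio3+/+ and 91.2% in Dio3-/- hearts. *Chrm3* followed with 0.75 and 0.64 RPKM, and the other 3 had means of 0.14 RPKM or less. *Chrm2* exceeded *Adrb1* 1.89 times in Dio3+/+ and 1.73 times in Dio3-/- hearts. Whether the ratio of the receptor that lowers to the receptor that raises cyclic AMP differed between genotypes was not tested, since it needs the values of single hearts. The atrial markers, chosen because M2 receptors are dense in atria, had summed means of 3204 and 3706 RPKM. Of the 9, *Stard10* rose, and 4 had an unadjusted *P* value under 0.05, all with higher means in Dio3-/- hearts (*Nppa*, *Myl7*, *Kcna5* and *Stard10*). The log2 change was above 0 in 5 of the 9. *Sln*, *Nr2f2*, *Nr2f1* and *Bmp10* had lower means in Dio3-/- hearts, with log2 changes down to −0.17. The ventricular markers had 4245 and 5082 RPKM with 0 of 6 past the test by limma and 1 of 6 with an unadjusted *P* value under 0.05, and the sinus node markers 58.4 and 56.8 RPKM with 0 of 7 past it and likewise 1 unadjusted. The part of these cell types in the level of *Chrm2* was not tested.

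*Adra1b*, which encodes the α1B receptor, had 2.31 RPKM (CV 0.22) in Dio3+/+ and 3.67 RPKM (CV 0.07) in Dio3-/- hearts, a ratio of 1.59. The mean ± SD ranges did not overlap, with 2.82 RPKM as the upper end in Dio3+/+ and 3.41 RPKM as the lower end in Dio3-/- hearts. Its log2 change of 0.57 (SE 0.12, 95% confidence interval 0.29 to 0.85) was as large as that of *Adrb1* but just missed the threshold (adjusted *P* = 0.051 by limma). The other 2 rows had log2 changes of 0.56 with adjusted *P* values of 0.052 and 0.053 by limma. The first row passed by limma with a pseudocount of 1 RPKM (adjusted *P* = 0.049) and when rows with a CV above 0.5 were left out (adjusted *P* = 0.034). In the other 7 of the 9 alternative settings it did not pass. Its adjusted *P* value by limma was 0.091 without an expression filter and 0.078 with centering, and 0.217 with Welch's test.

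*Adra1a*, which encodes the α1A receptor, was close to the floor of the table in both genotypes. Its highest row had 0.11 RPKM (CV 0.47) in Dio3+/+ and 0.10 RPKM (CV 0.25) in Dio3-/- hearts, and each of the other 4 rows was at 0.05 RPKM or less. It was therefore not tested. *Adra1b* accounted for 81.6% of the summed α1 receptor means in Dio3+/+ and 88.4% in Dio3-/- hearts, and *Adra1d* for most of the rest, with 0.41 and 0.38 RPKM. Among the α2 receptor genes, only *Adra2b* was above 1 RPKM, with 1.75 RPKM (CV 0.37) and 1.04 RPKM (CV 0.38) and an adjusted *P* value of 0.246 by limma.

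**Figure D3:**
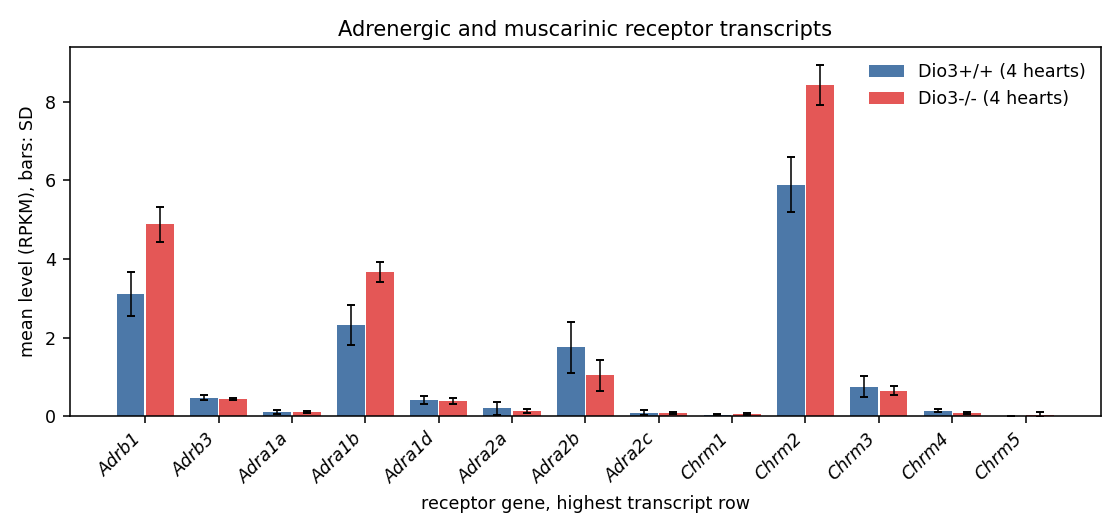
Mean level in RPKM of 8 adrenergic and 5 muscarinic receptor genes, by the highest row of each, in Dio3+/+ (blue) and Dio3-/- hearts (red), with bars from 0 and the SD over 4 hearts as error bars. *Chrm2*, *Adrb1* and *Adra1b* stand higher in Dio3-/- hearts, *Adra2b* stands lower with a wide SD, and the other 9 genes are below 1 RPKM.

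Downstream of the receptors, neither adenylyl cyclase gene passed the test. *Adcy5*, one of the cyclases that inhibitory G proteins restrain, had 14.53 RPKM (CV 0.11) in Dio3+/+ and 17.72 RPKM (CV 0.07) in Dio3-/- hearts, 22.0% more. Its log2 change was 0.28 (SE 0.08, 95% confidence interval 0.09 to 0.46, adjusted *P* = 0.105 by limma). *Adcy6*, its close relative, had 37.73 RPKM (CV 0.09) and 41.72 RPKM (CV 0.03), a log2 change of 0.14 (SE 0.06, 95% confidence interval from just below 0 to 0.29, adjusted *P* = 0.271 by limma). Its other 3 rows had log2 changes from 0.14 to 0.17, with adjusted *P* values from 0.200 to 0.266 by limma. Of the cyclase list, 0 of 8 tested genes passed by limma and 2 were under 0.05 unadjusted, *Adcy5* and *Adcy4* (7.65 and 8.71 RPKM, adjusted *P* = 0.112). *Adcy6* exceeded *Adcy5* 2.60 times in Dio3+/+ and 2.35 times in Dio3-/- hearts, and the pair made up 75.4% and 76.8% of the summed means of the 10 adenylyl cyclase genes.

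The transducers *Gnas* and *Gnai2* did not pass the test, and the intervals of their differences were narrow. *Gnas* had 939.94 RPKM (CV 0.06) in Dio3+/+ and 878.57 RPKM (CV 0.02) in Dio3-/- hearts, a log2 change of −0.10 (95% confidence interval −0.23 to 0.04, adjusted *P* = 0.425 by limma). *Gnai2* had 146.24 RPKM (CV 0.04) and 144.59 RPKM (CV 0.08), a log2 change of −0.02 (95% confidence interval −0.16 to 0.12, adjusted *P* = 0.920 by limma). Its other row had 143.53 and 138.59 RPKM and a log2 change of −0.05. In the means, *Gnas* stood above *Gnai2* 6.43 times in Dio3+/+ and 6.08 times in Dio3-/- hearts. The receptor kinase gene *Adrbk1* had 17.93 RPKM (CV 0.05) and 19.34 RPKM (CV 0.05), a log2 change of 0.11 (95% confidence interval −0.02 to 0.23, adjusted *P* = 0.337 by limma), and its other 2 rows had 0.10 and 0.04. Of the 10 G protein α subunit genes tested none passed by limma and 2 were under 0.05 unadjusted, of which *Gnai1* had 11.48 and 13.75 RPKM (adjusted *P* = 0.072 by limma).

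The *Gnas* locus is imprinted and gives several overlapping transcripts and an antisense RNA, and its 11 rows fell apart by level. The 7 rows above 10 RPKM had Dio3+/+ means from 355.15 to 939.94 RPKM and log2 changes that each rounded to −0.10. The other 4 rows had Dio3+/+ means from 1.51 to 4.45 RPKM, all lower in Dio3-/- hearts, with log2 changes from −1.40 to −0.40 and adjusted *P* values from 0.178 to 0.475 by limma. In 3 of the 4 the spread within Dio3+/+ hearts was as large as the mean or nearly so, with CVs of 1.38, 0.95 and 1.14, against 0.33, 0.12 and 0.18 in Dio3-/- hearts. Of the 8 skeletal muscle markers, 6 had CVs from 1.54 to 1.72 in the same Dio3+/+ hearts and lower means in Dio3-/- hearts. The other 2 had smaller CVs in Dio3+/+ hearts, with *Acta1* at 0.17 and higher in its Dio3-/- mean (113.76 and 149.79 RPKM) and *Myh8* at 0.29 and lower (3.79 and 3.26 RPKM). None of the 5 tested passed by limma, 4 were under 0.05 unadjusted, and their part in these rows was not tested. The fourth row had CVs of 0.21 and 0.19, and means of 2.58 and 1.83 RPKM, an unadjusted *P* value of 0.022 and an adjusted one of 0.178 by limma. The table does not say which transcript of the locus each row is, and counting by strand is not stated, so overlapping and antisense transcripts cannot be told apart.

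**Figure D4:**
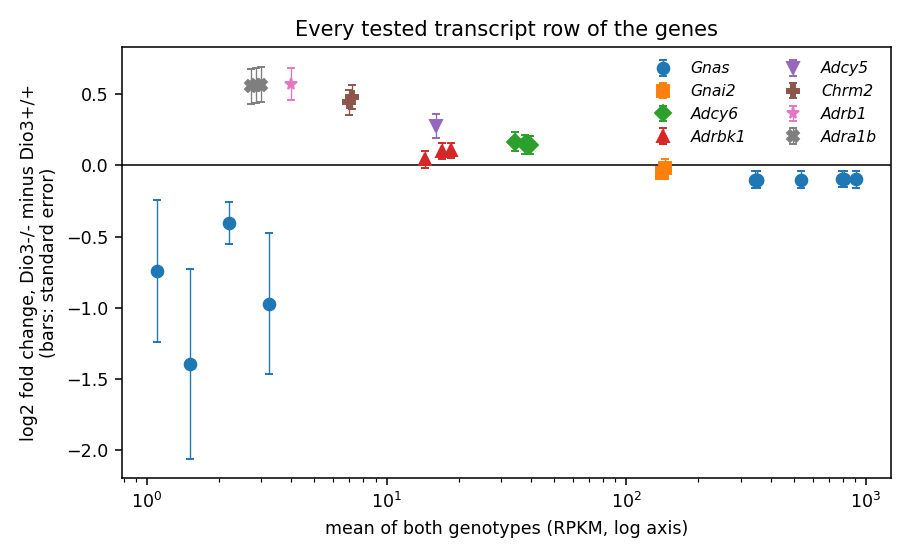
Log2 fold change of each tested transcript row of the 8 genes, Dio3-/- minus Dio3+/+, against the mean of both genotypes in RPKM on a log axis, with standard errors. Rows of the same gene lie together except for *Gnas* (blue circles), whose 4 rows of low level lie from −1.40 to −0.40 with wide errors.

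The CV was lower in Dio3-/- hearts for 6 of the 8 tested genes, where it was lower for 65.4% of all genes tested. The CVs in Dio3-/- hearts, which include the 2 with a discordant age field, went from 0.02 for *Gnas* to 0.09 for *Adrb1*, and those in Dio3+/+ hearts from 0.04 for *Gnai2* to 0.22 for *Adra1b*. The median CV of all genes tested was 0.06 in Dio3-/- and 0.09 in Dio3+/+ hearts.

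The surrounding pathway was examined with 13 lists that hold 149 further genes, of which 111 were tested. The lists, like the members, were chosen with earlier results of these data known. By the highest row, 1 rose and 1 fell, which is 1.80% of the 111, near the 2.29% of all genes. Unadjusted, 30 of the 111 (27.0%) had a *P* value under 0.05 by limma, against 19.7% of all genes. Their median log2 change was 0.05, against 0.04 for all genes. *Pde7b*, which encodes a phosphodiesterase that breaks down cyclic AMP, rose from 9.08 RPKM (CV 0.07) to 11.27 RPKM (CV 0.03), a log2 change of 0.30 (SE 0.06, adjusted *P* = 0.038 by limma). That call ended without an expression filter, with Welch's test, with centering and with CVs raised by their rounding error. *Ache*, which encodes the acetylcholinesterase that ends the action of acetylcholine, fell from 9.67 RPKM (CV 0.09) to 6.07 RPKM (CV 0.08), a log2 change of −0.63 (SE 0.08, adjusted *P* = 0.0056 by limma), and 4 of its 6 rows passed. With Welch's test, as recalculated here, it did not pass. Red cells also carry this enzyme, and the erythroid markers had lower means in the same hearts, with sums of 97861 and 34003 RPKM and a median CV of 0.335 in Dio3+/+ and 0.535 in Dio3-/- hearts. Their part in the level of *Ache* was not tested.

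Of the remaining pathway genes, none passed in its highest row. *Bche*, which encodes a second enzyme that splits acetylcholine, had 13.14 and 13.07 RPKM. For the potassium channel that muscarinic receptors open, *Kcnj5* had 14.07 and 16.54 RPKM (log2 change 0.23, adjusted *P* = 0.217 by limma) and *Kcnj3* had 8.74 and 9.09 RPKM (0.05, adjusted *P* = 0.809 by limma), with 0 of 2 passing by limma and 1 under 0.05 unadjusted. *Rgs6*, which encodes a brake on M2 receptor signaling and was picked after its values were seen, had 7.22 and 9.11 RPKM with a log2 change of 0.32 and an adjusted *P* value of 0.16 by limma. Among the regulators of G protein signaling, *Rgs3* had 16.85 and 17.81 RPKM and *Rgs19* had 17.45 and 16.56 RPKM, and none of 15 passed by limma, with 2 of 15 under 0.05 unadjusted.

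For the cyclic AMP sensors, *Prkar1a*, a regulatory subunit of protein kinase A, had 133.17 and 141.67 RPKM, and *Popdc2*, which encodes a membrane protein that binds cyclic AMP, had 95.02 (CV 0.15) and 127.69 RPKM (CV 0.07). The log2 change of *Popdc2* was 0.42 with an adjusted *P* value of 0.062 by limma, and none of the 20 tested genes of that list passed in its highest row, with 7 under 0.05 unadjusted. In *Akap13*, which encodes an anchor of the kinase, a lower row passed while the highest did not. For G protein β and γ subunits, *Gnb2l1*, a relative of the β subunits, had 493.49 and 503.25 RPKM and *Gng5* had 257.03 and 242.31 RPKM, with none of 14 passing by limma and 3 under 0.05 unadjusted. For the α1 receptor effectors, *Plcb4* had 11.09 and 12.68 RPKM and *Prkcd* had 11.45 and 11.17 RPKM, with none of 13 passing by limma and 5 under 0.05 unadjusted. In the list of receptor kinases and arrestins, which holds *Adrbk1*, *Pebp1* had 80.43 and 81.77 RPKM, and none of 10 passed by limma or had an unadjusted *P* value under 0.05.

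Enzymes specific to the making of the transmitters had transcripts close to 0. *Th* and *Dbh*, which encode enzymes of noradrenaline synthesis, had 0.12 and 0.19 RPKM in Dio3+/+ hearts and 0.13 and 0.23 RPKM in Dio3-/- hearts, and *Chat*, which encodes the enzyme that makes acetylcholine, had 0.01 RPKM in both. *Ddc*, which encodes an aromatic amino acid decarboxylase, had 28.67 and 33.14 RPKM, and none of the 5 tested genes of catecholamine handling passed by limma, with 2 under 0.05 unadjusted. Of the autonomic neuron and Schwann cell markers, 8 of 12 were below the limit for testing, and 0 of the other 4 passed by limma or were under 0.05 unadjusted.

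**Figure D5:**
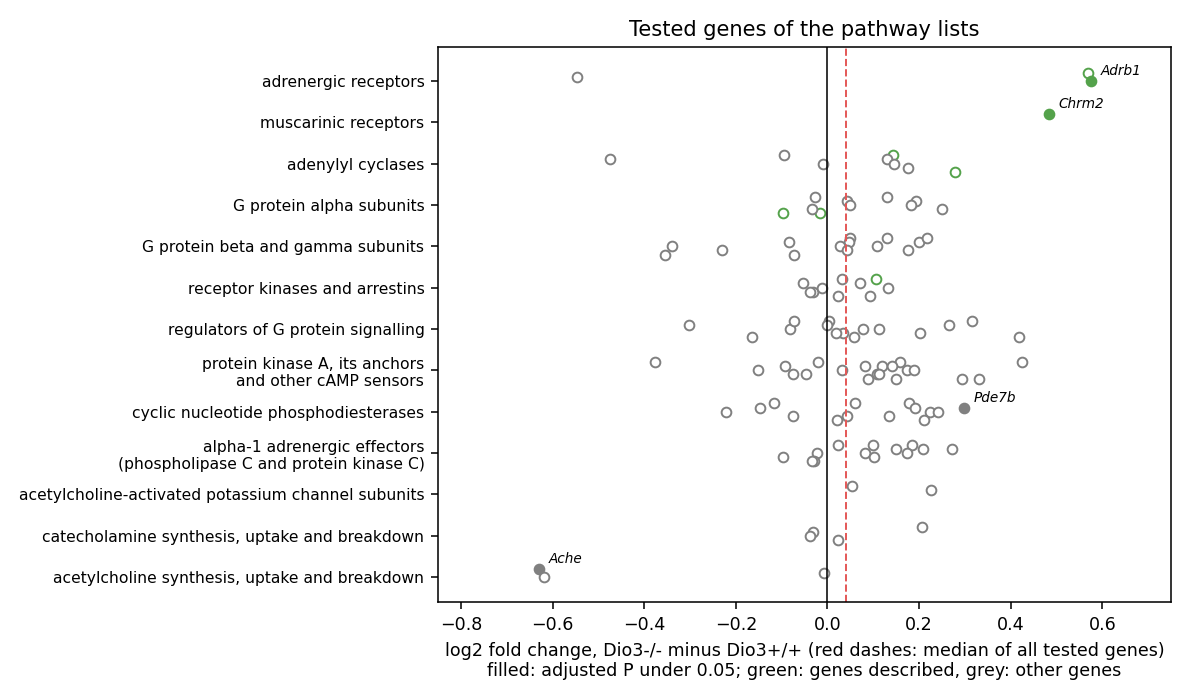
Log2 fold change of tested genes of the 13 pathway lists, Dio3-/- minus Dio3+/+, with the 8 tested members of the 9 genes in green, other genes in grey and filled points for an adjusted *P* value under 0.05. *Adrb1*, *Chrm2* and *Pde7b* are filled on the right and *Ache* on the left, and most genes lie close to the dashed median of all genes (0.04).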

How the data were processed

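Hearts were profiled by sequencing of ribosomal RNA-depleted total RNA (single-end reads). The authors aligned reads with Novoalign (version 2.08, per the labels), used reads with a unique position, brought the samples to the read total of the smallest by linear scaling and deposited, for each UCSC known-gene transcript, a mean per genotype read here as RPKM and a coefficient of variation, the ratio of SD to mean, both rounded to 2 decimals. The genome build is not given in the sources used here. The authors' fold changes and *q* values were not used. The Methods give a range and an average of aligned reads but no number for each heart, and the table holds no counts, so no counting interval was calculated.

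SDs on the log2(mean + 0.5) scale were taken as SD/((mean + 0.5) ln 2) and pooled with 6 residual degrees of freedom. The squeezeVar function of limma 3.58.1 in R 4.3.3 moderated the variances along a trend with the mean (3.52 prior degrees of freedom) and *P* values adjusted by the Benjamini-Hochberg method. Means of log values were replaced by logs of means. The calculation was tested on simulated data. The Methods name Welch's test, which was an alternative. It was recalculated from the means and rounded CVs on the log2 scale, and is not the authors' own calculation. Its results here can therefore differ from the authors' *q* values. The fixed design assumed values of single hearts, which the table does not hold.

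Genes named were the 9 members, *Dio3*, and from each pathway list the genes that passed or otherwise the 2 with the highest means, and the marker lists checked the tissue. A few genes that this rule or the lists hold are not reported here. Members and lists were chosen with earlier results of these data known. No source says that the hearts of a genotype came from separate litters.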

Additional observations from a re-analysis of the deposited data

How the results depend on the processing

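In the 102 alternative values of the log2 fold changes of the 9 genes, over other settings and other transcript rows, 1 changed direction, that of an *Adra1a* row at 0.03 and 0.04 RPKM (0.03 on the log2 scale, against −0.02 in its highest row). Of the 102, 96 stayed on the same side of the threshold, or within the SD for the untested *Adra1a*, 4 lost the call and 2 gained it. The count of members that passed, 2, was 1 without an expression filter, with a mean over both genotypes above 5 RPKM (which leaves out *Adrb1*) and with centering, each time *Chrm2*, and 0 with Welch's test, where 4 of the 8 had an unadjusted *P* value under 0.05. By Welch's test, 5238 of the 32703 rows over all genes were under 0.05 unadjusted. *Adrb1* lost the call at 0.58 with Welch's test or with no expression filter, and at 0.54 with centering. *Chrm2* lost the call with Welch's test at a log2 fold change of 0.48. *Adra1b* gained it with a pseudocount of 1 RPKM (0.50) and without rows of high CV (0.57). The 2 further pathway genes that passed became 1 without an expression filter, with centering and with CVs raised by 0.005, 0 with Welch's test (24 of 111 under 0.05 unadjusted), 5 without rows of a CV above 0.5 and 3 above 5 RPKM, where *Popdc2* was gained. Over all genes, 336 became 197 without an expression filter, 27 with Welch's test, 180 with centering and 187 with raised CVs, and the other settings gave from 250 without a mean-variance trend to 382 above 5 RPKM and 495 without rows of high CV. The cause of these changes was not tested. Leaving out single hearts was not run. No paired analysis was possible because the table holds only genotype means. Without counts, the counting error of rows near 0, such as those of *Adra1a*, could not be calculated.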
